A study of Homo sapiens with 19 samples.

Results

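The 8 genes described here encode receptors for extracellular nucleotides: P2RY1, P2RY2, P2RY6, P2RY13 and P2RY14 of the P2Y family and P2RX1, P2RX4 and P2RX7 of the P2X family. They were named in a list, out of 20007 protein-coding genes of GENCODE release 44, and all 8 were found in the annotation. They were chosen by name with the bp under peaks in these Corin and DMSO libraries already known, so the differences between treatments are given as a description, with no test. MOLM-13, an established line of human acute myeloid leukaemia carrying a KMT2A fusion and a FLT3 internal tandem duplication, was treated for 24 h with 0.1 µM Corin or with DMSO, its vehicle, and profiled by CUT&RUN, in which an antibody directs a nuclease to release the chromatin that carries a mark. Corin is a hybrid molecule built to inhibit LSD1, a histone demethylase, together with the deacetylases found beside it in CoREST. Each of the 3 marks, H3K27ac of active promoters and enhancers, H3K4me2 of promoters and enhancers and H3K4me3 of promoters, was measured in 2 libraries per treatment. The labels state the same dose for DMSO, a solvent, and do not say whether the replicates were separate cultures, and a single cell line was used. The other 7 of the 19 libraries were not analysed here.

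P2Y receptors are G protein-coupled receptors for ATP, ADP, UTP, UDP or UDP-glucose, and P2X receptors are cation channels opened by ATP. Nucleotides leave damaged, dying or stimulated cells, and myeloid cells read them as signals for chemotaxis, phagocytosis and cytokine release. Surface enzymes then degrade them stepwise to adenosine, which acts on receptors of its own.

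Every value below is the number of bp lying under peaks of 1 library, either in the window of 10 kb on both sides of the transcription start site (TSS), which is the same length for every gene, or over the gene body. It measures how far the called peaks extend and not how strong the mark is, and no RNA data were used here. A gene is called higher when both Corin libraries exceeded both DMSO libraries, and lower in the opposite case. The lists grew in length with Corin: those of H3K27ac held 17599 to 19995 peaks after DMSO and 30029 to 34424 after Corin. Mean covered length was 1.96-fold higher after Corin for H3K27ac, 1.28-fold for H3K4me2 and 1.06-fold for H3K4me3. The labels state at least 5000000 reads per library and no exact depth, and the part of depth in this growth was not tested. As a check of the cell label, an H3K4me3 peak lay within 1 kb of the TSS in all 4 libraries of that mark at 5 of 8 myeloid markers (CD33, SPI1, FLT3, CEBPA and LYZ), at CD14 in 1 library and at MPO and ITGAM in none. Of 12 markers of other cell types, 11 had none, and NCAM1 had a peak in all 4.

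The 8 genes fell into 3 kinds of chromatin. P2RY13 and P2RY14 had no peak of any mark within 10 kb of the TSS or over the gene body in any of the 12 libraries. P2RY1 had H3K4me2 over its TSS without H3K27ac. The other 5 carried all 3 marks in at least some libraries, and P2RY2 had the longest cover of each. In the windows, H3K27ac was higher after Corin at 4 of the 5 genes that had a peak and lower at 0, against 54.6% higher and 0.655% lower among the 10529 genes with an H3K27ac peak. H3K4me2 was higher at 3 of 6 and lower at 0, against 39.5% and 3.83% of 14074 genes. H3K4me3 was higher at 2 of 6 and lower at 0, against 25.7% and 8.28% of 11189 genes. With only 5 or 6 genes behind them, these counts do not set the receptors apart from the other genes. The median difference over the covered members was 1374.5 bp for H3K27ac, 602.5 bp for H3K4me2 and 114 bp for H3K4me3, and over all covered genes it was 445, 233.5 and 63.5 bp. Over all 8 members, those without a peak included, it was 610.5, 355 and 6 bp. The median H3K27ac fold, over the members and genes with a peak under both treatments, was 2.11 for the members and 1.68 for all genes. For H3K4me2 the medians were 1.147 and 1.110, and for H3K4me3 they were 1.004 and 1.04. Over gene bodies H3K27ac was higher at 5 of 5 members (53.4% of covered genes higher, 0.953% lower), H3K4me2 at 5 of 6 (39.7% and 4.76%) and H3K4me3 at 3 of 6 (23.5% and 9.09%), with 0 lower in each. Divided by the total length that each list covered, H3K27ac was higher at 0 of the 5 genes, against 16.5% higher and 25% lower among all covered genes under the same division. P2RY2 then stood at 1.02-fold, P2RX1 at 1.09-fold, P2RX7 at 1.13-fold and P2RX4 at 0.974-fold of DMSO, and P2RY6 overlapped as it did before. Without that division, the folds of the 4 higher genes, 1.92 to 2.19, lay close to the 1.96-fold growth of the lists. P2RY6, whose groups overlapped, stood at 4.74-fold. When each list was instead cut to the same number of top-scoring peaks, P2RY2 (1.83-fold), P2RX1 (2.04-fold) and P2RX7 (1.86-fold) were still higher, 3 members of 5 against 35.3% of genes.

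**Figure D1:**
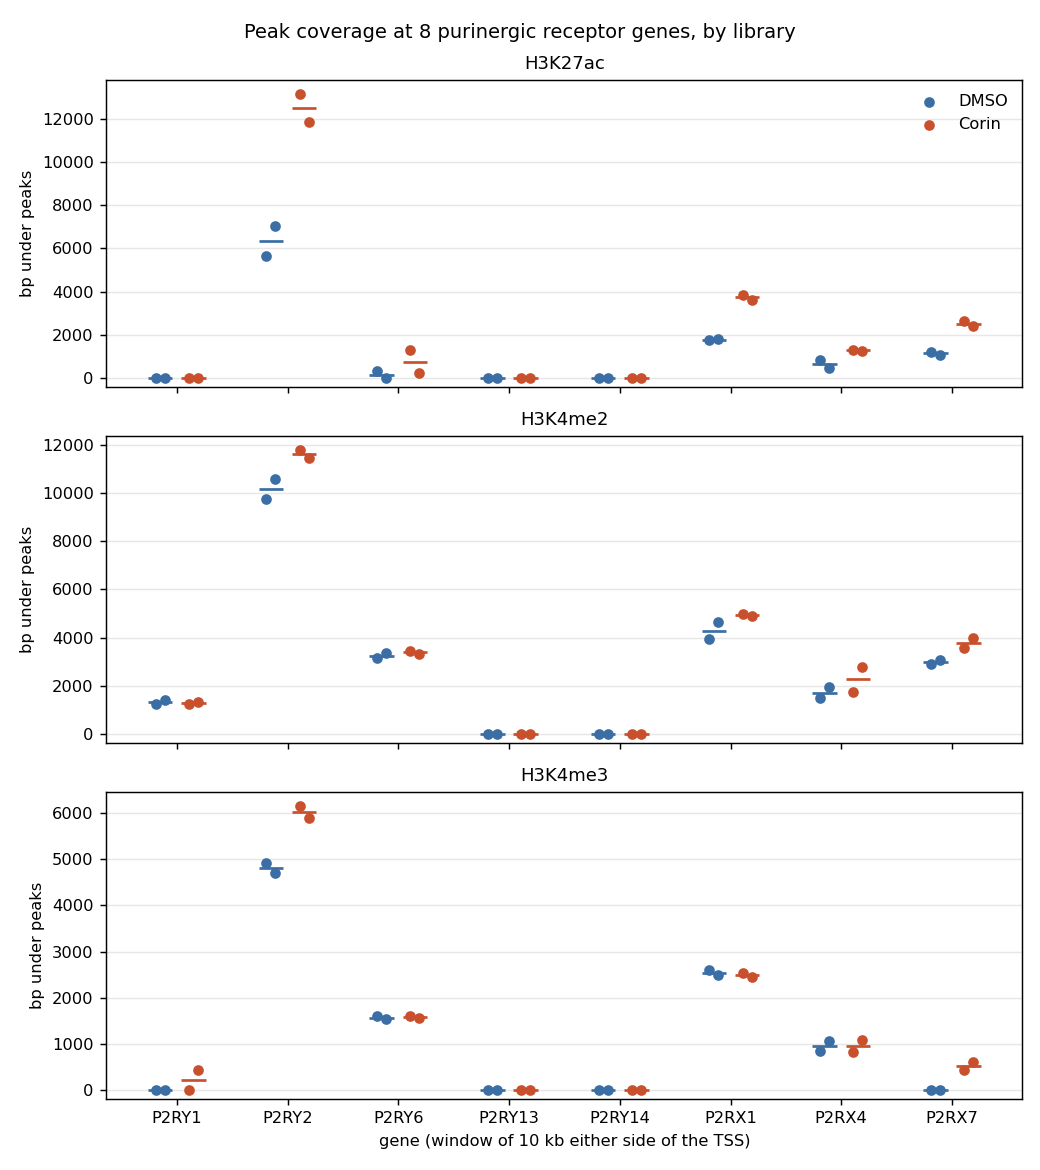
Each point is 1 library and each bar the mean of 2, for H3K27ac (top), H3K4me2 (middle) and H3K4me3 (bottom), with bp under peaks within 10 kb of the TSS on the vertical axis, a scale that differs between the panels. P2RY2 lies at 11828 and 13136 bp of H3K27ac after Corin and at 5669 and 7017 bp after DMSO, while P2RY13 and P2RY14 lie at 0 throughout.

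**Figure D2:**
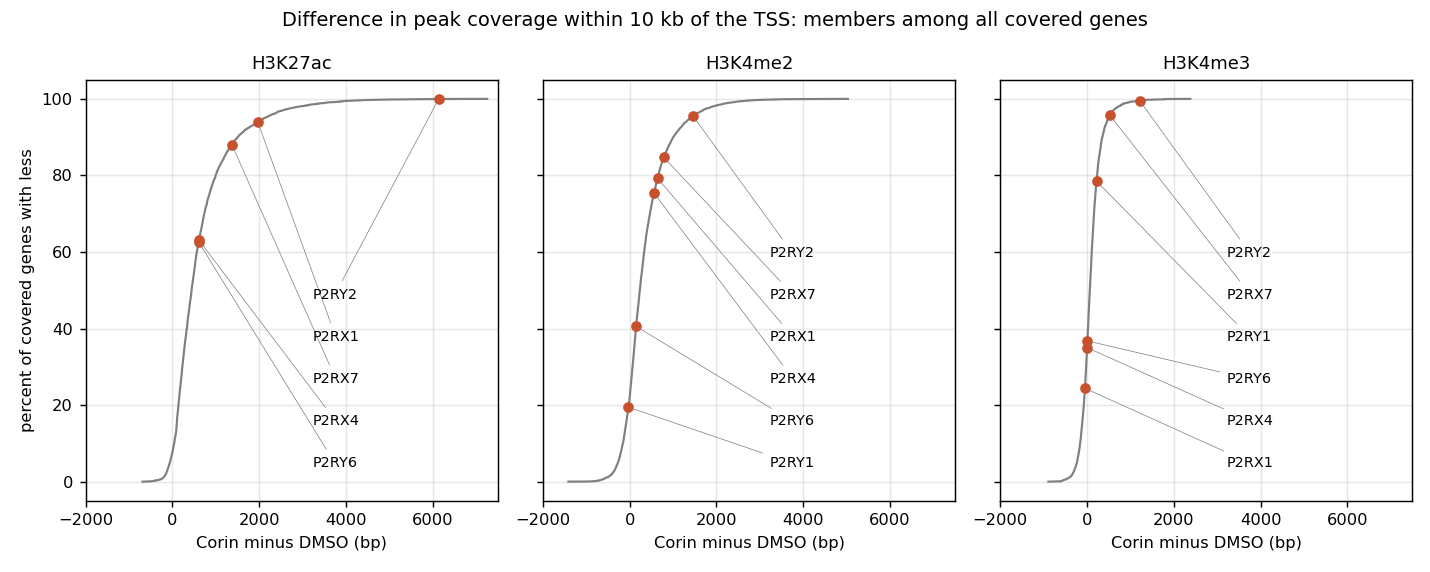
The grey curve ranks all covered genes by the difference of the Corin and DMSO means in bp within 10 kb of the TSS, for each mark, and orange points are the receptor genes with a peak. P2RY2 is at the upper end for H3K27ac (6139 bp) and H3K4me3 (1212.5 bp), and P2RX1, P2RX4 and P2RY6 lie at or near 0 for H3K4me3.

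Promoter sequences, which show how the base composition of the marked and unmarked genes differs, were found in RefSeq (GRCh38.p14) for 5 of the 8 genes: P2RY1, P2RY13, P2RY14, P2RX4 and P2RX7. Entries for P2RY2, P2RY6 and P2RX1 were not found. Each line gives up to 250 bases before the TSS, 5′ to 3′ on the gene's strand, ending before any annotated UTR, with CpG dinucleotides in capitals.
P2RY1, chr3:152834881-152835130, plus strand: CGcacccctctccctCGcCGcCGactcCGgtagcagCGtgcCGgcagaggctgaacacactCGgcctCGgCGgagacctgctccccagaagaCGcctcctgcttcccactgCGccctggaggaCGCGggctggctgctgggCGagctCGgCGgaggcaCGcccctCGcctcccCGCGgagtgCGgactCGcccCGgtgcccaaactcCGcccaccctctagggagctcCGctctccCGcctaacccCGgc
P2RX4, chr12:121209879-121210064, plus strand: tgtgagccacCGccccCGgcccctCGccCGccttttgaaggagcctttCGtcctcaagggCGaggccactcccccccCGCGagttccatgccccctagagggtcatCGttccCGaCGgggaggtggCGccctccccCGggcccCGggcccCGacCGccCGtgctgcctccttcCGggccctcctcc
P2RX7, chr12:121132626-121132818, plus strand: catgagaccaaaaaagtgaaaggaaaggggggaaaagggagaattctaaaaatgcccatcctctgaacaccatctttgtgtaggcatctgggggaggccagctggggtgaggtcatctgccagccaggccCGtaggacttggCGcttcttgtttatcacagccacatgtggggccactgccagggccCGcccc
P2RY14, chr3:151278543-151278792, minus strand: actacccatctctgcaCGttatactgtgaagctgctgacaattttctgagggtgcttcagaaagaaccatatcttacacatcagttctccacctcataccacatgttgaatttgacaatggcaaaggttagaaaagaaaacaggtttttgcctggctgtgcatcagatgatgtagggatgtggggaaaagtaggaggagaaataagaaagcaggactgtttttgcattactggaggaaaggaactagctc
P2RY13, chr3:151329550-151329799, minus strand: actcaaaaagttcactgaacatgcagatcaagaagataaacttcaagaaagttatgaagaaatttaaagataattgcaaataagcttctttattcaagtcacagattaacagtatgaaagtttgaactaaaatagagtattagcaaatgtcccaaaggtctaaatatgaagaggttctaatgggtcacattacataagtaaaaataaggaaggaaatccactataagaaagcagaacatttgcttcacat

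In the stretch from 250 bases before to 50 after the TSS, P2RY1 held 32 CpG and P2RX4 held 33, more than 81.1% and 82.8% of 35116 promoters, whose median was 14. P2RX7 held 4, the first P2RY14 promoter 2, a second P2RY14 promoter 3 and P2RY13 only 1. The GC content was 72.7% at P2RY1, 76% at P2RX4, 53.3% at P2RX7, 42.7% and 42.3% at the P2RY14 promoters and 32.7% at P2RY13, against a median of 58.7%. The genes without any peak thus had the promoters poorest in CpG, a description of 5 genes. Motifs were searched on both strands: for PU.1 the letters GAGGAAGT, for C/EBP the strict TTGCGCAA and the looser TTGCNNAA, for RUNX the letters TGTGGTTT, for AP-1 the letters TGANTCA, for a TATA box the letters TATAAA, and also, by name, the motif of GFI1 and direct repeats of the retinoic acid receptors. The looser C/EBP form alone was found, in a P2RY14 promoter, as in 10.5% of all promoters. The strict C/EBP form is a case of the looser one.

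P2RY2 (ENSG00000175591.12, chromosome 11, 73218281 to 73242427, plus strand), a receptor for ATP and UTP that drives chemotaxis of phagocytes, had the widest marked domain of the 8 genes. H3K27ac covered 13136 and 11828 bp of its window after Corin, and 5669 and 7017 bp after DMSO. The Corin values lay clear of both DMSO values. Means were 12482 ± 925 bp (SD, n = 2) and 6343 ± 953 bp (SD, n = 2), a difference of 6139 bp with an SD of 1328, or 1.97-fold. The difference ranked number 5 among the 10529 covered genes. P2RY2 was already heavily covered in DMSO cells, where 99.0% and 99.6% of covered genes had less H3K27ac.

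Much of the additional H3K27ac lay around an existing domain. The widest H3K27ac peak ran from -2020 to 2112 bp and from -2119 to 2178 bp of the TSS in the DMSO libraries, and from -3861 to 4812 bp and from -3003 to 4630 bp in the Corin libraries. Its width, 4133 and 4298 bp after DMSO and 8674 and 7634 bp after Corin, ranked number 37, 30, 17 and 10 in the respective lists. Part of that widening was the joining of peaks that were separate in DMSO cells, since the whole union region from -3897 to 4812 bp held 5096 and 5659 bp after DMSO and 8674 and 7916 bp after Corin. H3K4me2 already spanned this ground in all 4 libraries, with its widest peak at 9356 and 10239 bp after DMSO and 10337 and 10432 bp after Corin. H3K4me3 formed 1 peak per library, of 4914 and 4699 bp after DMSO and 6149 and 5889 bp after Corin. That peak began at much the same place upstream (between -1867 and -1715 bp) and ended further into the gene after Corin, at 4304 and 4140 bp against 3198 and 2831 bp. In the window the H3K4me3 difference was 1212.5 bp with an SD of 239, or 1.25-fold, rank 51 of 11189 genes. Divided by total covered length it was still higher in both Corin libraries, at 1.18-fold. For H3K4me2 the window held 11775 and 11452 bp with Corin against 9728 and 10577 bp with DMSO, 1.14-fold, and after that division the direction turned to 0.896-fold, lower in both Corin libraries.

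Base by base, 4952 bp of H3K27ac over P2RY2 and its window were covered in both Corin and neither DMSO library, and 0 bp in the opposite pattern. Of these 4952 bp, 48.7% lay under H3K4me2 in both DMSO libraries, against 36.6% of such bases over all chromosomes. The 942 bp of H3K4me3 covered in both Corin and neither DMSO library lay entirely under H3K27ac of both Corin libraries and under H3K4me2 of both DMSO libraries. Over all chromosomes the corresponding shares were 22.0% and 93.6%. The overlap was not particular to the added bases. All 5889 bp of H3K4me3 in both Corin libraries lay under H3K27ac of both, against 43.6% over all chromosomes. Neighbouring bases belong to the same few peaks, so these percentages are descriptions of a locus.

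Separate H3K27ac regions also appeared across the P2RY2 gene. A union region, made by merging the peaks of the 4 libraries of a mark, is called gained when it had a peak in both Corin and neither DMSO library. Of 37 H3K27ac regions at the 8 genes, 6 were gained and 0 lost, against 11.5% and 0.18% of all 41587 regions. Of 14 H3K4me2 regions, 1 was gained and 0 lost, against 9.64% and 0.158%, and of 6 H3K4me3 regions, 1 was gained and 0 lost, against 1.49% and 0.289%. P2RY2 held 5 of the 6 gained H3K27ac regions. They were narrow, 331 to 525 bp, and their highest score in any library was 94, while the lists start at 50. None remained gained when the lists were cut to a matched number of peaks. Other P2RY2 regions had a DMSO peak and still separated. From -6022 to -4130 bp, H3K27ac covered 1833 and 1511 bp with Corin against 573 and 583 bp with DMSO. From 4897 to 6218 bp it covered 954 and 1121 bp against 0 and 354 bp. Beyond the window, the rest of the gene body carried 3824 and 2294 bp of H3K27ac with Corin against 0 and 201 bp with DMSO, with 0 bp of H3K4me2 and H3K4me3 in every library. That stretch includes the coding exon and a long non-coding RNA gene, ENSG00000260401. The widest H3K27ac region of the stretch, from 21706 to 23922 bp, held 1965 and 869 bp with Corin against 0 and 201 bp with DMSO. Its highest scores after Corin were 144 and 115. A further long non-coding gene, ENSG00000215841, lies head to head with P2RY2 inside the main domain, and its marks cannot be told apart from those of P2RY2.

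The gained region at -7295 to -6939 bp was the only one of the 6 at which H3K4me2 was gained too (-7316 to -6942 bp), with 358 and 375 bp of H3K4me2 and 357 and 293 bp of H3K27ac after Corin. The line below shows 300 bases at the centre of the H3K27ac shared by both Corin libraries, for a gained region in an intron of P2RY2, with matches to the motifs in capitals, from hg38.
P2RY2 intron, chr11:73233295-73233594, plus strand: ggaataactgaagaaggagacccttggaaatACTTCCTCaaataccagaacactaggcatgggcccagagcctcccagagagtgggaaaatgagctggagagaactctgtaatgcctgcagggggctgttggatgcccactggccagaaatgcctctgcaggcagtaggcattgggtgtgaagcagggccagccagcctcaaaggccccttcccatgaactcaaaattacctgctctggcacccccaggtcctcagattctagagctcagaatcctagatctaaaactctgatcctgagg

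The intronic sequence holds ACTTCCTC, the PU.1 motif on the minus strand, as do 3.46% of all 41587 H3K27ac regions searched over the same length. None of the other motifs was found in it. Of the 8 H3K27ac regions at these genes whose motifs are reported on, printed or not, it was the only 1 with a match.

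**Figure D3:**
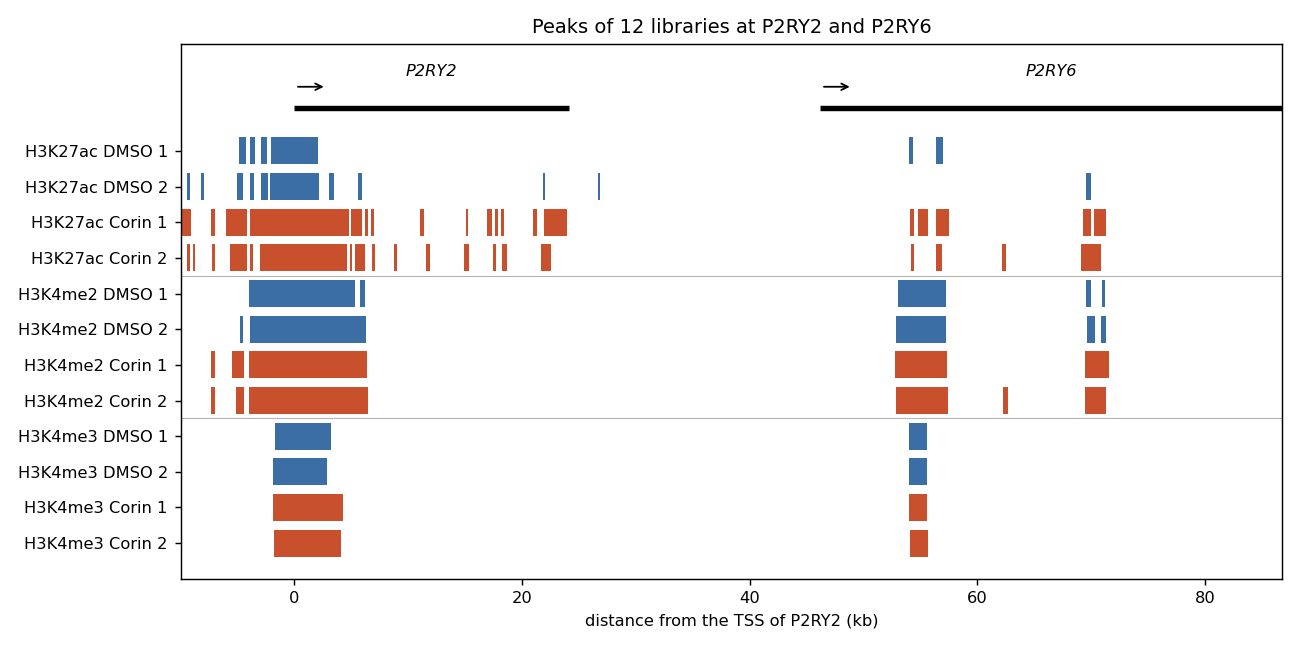
Boxes are peaks of the 12 libraries (DMSO blue, Corin orange) by distance in kb from the P2RY2 TSS, with genes as black bars and arrows in the direction of transcription. H3K27ac widens around the TSS of P2RY2 after Corin. Separate H3K27ac peaks follow up to near the end of the gene, where DMSO replicate 2 also holds 201 bp. A block of H3K27ac and H3K4me2 widens inside P2RY6, while no H3K4me2 or H3K4me3 peak lies between the genes.

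P2RY6 (ENSG00000171631.16, chromosome 11, 73264498 to 73305103, plus strand), the receptor for UDP, which promotes phagocytosis in microglia and macrophages, starts 46217 bp downstream of P2RY2. None of its peaks lay at the 5′ end of the gene. H3K4me3 lay from 7785 to 9437 bp downstream, at the start of the canonical transcript, which is 7840 bp from the 5′ end. There it covered 1598 and 1558 bp with Corin against 1596 and 1541 bp with DMSO, a difference of 9.5 bp with an SD of 48.1 and overlapping groups. H3K27ac in the window was uneven, 1288 and 251 bp with Corin against 325 and 0 bp with DMSO, and the groups overlapped. H3K4me2 overlapped too, at 3468 and 3330 bp with Corin against 3149 and 3350 bp with DMSO. With the window placed on the canonical transcript, both marks were higher in both Corin libraries, at 2397 and 1147 bp against 961 and 0 bp for H3K27ac and at 4572 and 5024 bp against 4221 and 4400 bp for H3K4me2. For H3K27ac the groups also separated at a score of at least 100, with 1288 and 251 bp against 0 and 0 bp.

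The clearest difference at P2RY6 lay deeper in the gene. A region from 22907 to 25098 bp past the 5′ end, in which a further annotated transcript starts, held 1735 and 1721 bp of H3K27ac with Corin against 0 and 395 bp with DMSO. H3K4me2 there covered 2090 and 1866 bp with Corin against 764 and 1139 bp with DMSO. H3K4me3 was not called there in any library. Over the whole gene body H3K27ac was 4132 and 2868 bp with Corin against 961 and 395 bp with DMSO, 5.16-fold, and H3K4me2 was 6662 and 6890 bp against 4985 and 5539 bp, 1.29-fold. Of 936 bp of H3K27ac present in both Corin and neither DMSO library at P2RY6, 10.8% lay under H3K4me2 of both DMSO libraries and 84.8% under H3K4me2 of both Corin libraries, against 36.6% and 48.1% over all chromosomes. The line below shows 300 bases at the centre of the H3K27ac shared by both Corin libraries in the widest region, part of which also lay under the peak of DMSO replicate 2. It holds none of the motifs.
P2RY6 intragenic, chr11:73287799-73288098, plus strand: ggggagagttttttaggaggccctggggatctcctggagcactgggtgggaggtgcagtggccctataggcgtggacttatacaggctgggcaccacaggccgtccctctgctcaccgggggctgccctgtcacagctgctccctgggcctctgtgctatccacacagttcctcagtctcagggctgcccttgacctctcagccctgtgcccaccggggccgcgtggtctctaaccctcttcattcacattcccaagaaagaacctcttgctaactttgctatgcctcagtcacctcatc

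Read together, from 10 kb before P2RY2 to the end of P2RY6 (chromosome 11, 73208281 to 73305103), the locus held 21092 and 16990 bp of H3K27ac with Corin against 6630 and 7817 bp with DMSO. The means differed 2.64-fold, a value that includes the peaks past the P2RY2 window. Most of the regions there were narrow and low-scoring, but not the one from 21706 to 23922 bp described above. H3K4me2 covered 18437 and 18342 bp against 14713 and 16116 bp, 1.19-fold, and H3K4me3 7747 and 7447 bp against 6510 and 6240 bp, 1.19-fold. The 12070 bp that lie outside both genes and windows held a single H3K27ac peak of 204 bp, in DMSO replicate 2. The H3K4me3 difference came from P2RY2 alone, since at P2RY6 that mark differed by 9.5 bp.

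P2RY1 (ENSG00000169860.7, chromosome 3, 152835131 to 152841439, plus strand), the ADP receptor best known from platelet shape change, carried H3K4me2 from -637 to 823 bp of its TSS in all 4 libraries. It covered 1251 and 1346 bp with Corin against 1252 and 1400 bp with DMSO, overlapping groups with a difference of -27.5 bp and an SD of 124. H3K27ac was at 0 bp in all 4 libraries, and H3K4me3 was called in Corin replicate 2 alone, over 437 bp with a score of 82. Only 19.5% of covered genes had a lower H3K4me2 difference.

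P2RY13 (ENSG00000181631.7, chromosome 3, 151326312 to 151329549, minus strand), an ADP receptor, and P2RY14 (ENSG00000174944.9, chromosome 3, 151212117 to 151278542, minus strand), the receptor for UDP-glucose, lie 51007 bp apart by TSS within the body of MED12L, which is transcribed from the opposite strand. Neither their windows nor their bodies held a peak in any of the 12 lists, with either treatment. In a window of 25 kb P2RY14 still had none, while P2RY13 had 1003 and 1061 bp of H3K27ac with Corin against 0 and 586 bp with DMSO, and 1225 and 988 bp of H3K4me2 against 540 and 912 bp. Both marks were thus higher in both Corin libraries there, at a distance of over 10 kb from the TSS. A peak list records only signal above the caller's threshold, so a weak mark below it cannot be seen.

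P2RX7 (ENSG00000089041.17, chromosome 12, 121132819 to 121188032, plus strand), the channel that opens at high ATP and triggers the NLRP3 inflammasome, was the member with an H3K4me3 peak just past its TSS in both Corin libraries and neither DMSO library. In Corin replicate 1 H3K4me3 covered 440 bp, from 210 to 649 bp past the 5′ end. In Corin replicate 2 it covered 609 bp, from 46 to 654 bp, which takes in the canonical start at 57 bp. Both DMSO libraries held 0 bp. Scores were low, 76 and 131, and at a matched number of peaks or a score of at least 100 the peak of Corin replicate 1 was lost, leaving 0 and 609 bp. H3K4me2 covered the same TSS in all 4 libraries, with 2338 and 2685 bp with Corin against 2055 and 2157 bp with DMSO. All 440 bp of H3K4me3 shared by the Corin libraries lay under H3K4me2 of both DMSO libraries. No H3K27ac peak reached the P2RX7 TSS in any library.

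H3K27ac at P2RX7 lay on both sides of the TSS instead. An upstream region (-3989 to -2843 bp) held 1123 and 836 bp with Corin against 653 and 847 bp with DMSO, overlapping values. An intronic region (8497 to 13415 bp) held 4436 and 2948 bp with Corin against 3110 and 2134 bp with DMSO, which also overlapped. In the window, whose edge cuts the intronic region, H3K27ac was 2627 and 2426 bp with Corin against 1227 and 1077 bp with DMSO, 2.19-fold with a difference of 1374.5 bp and an SD of 177. In a window of 5 kb that leaves the intron out, the difference was 229.5 bp and the groups overlapped. With a score of at least 100, the 10 kb window held 2627 and 1661 bp with Corin and 0 and 541 bp with DMSO. Over the gene body it was 5652 and 4243 bp against 3110 and 2134 bp, 1.89-fold. H3K4me2 accompanied both flanking regions in all 4 libraries and in the window was 3577 and 3996 bp with Corin against 2912 and 3092 bp with DMSO, 1.26-fold. Scaled to total length it was 0.992-fold. Of 961 bp of H3K27ac found in both Corin and neither DMSO library at P2RX7, 0% lay under H3K4me2 of both DMSO libraries, against 36.6% over all chromosomes and 48.7% at P2RY2. A further intron region (26706 to 27104 bp) was gained for H3K27ac, with 366 and 384 bp after Corin and scores of only 65 and 70. It was no longer gained at a matched number of peaks. Its centre is shown because it carried no other mark. It holds none of the motifs. The 3′ part of P2RX7 overlaps the long non-coding gene ENSG00000286248 on the opposite strand.
P2RX7 intron, chr12:121159584-121159883, plus strand: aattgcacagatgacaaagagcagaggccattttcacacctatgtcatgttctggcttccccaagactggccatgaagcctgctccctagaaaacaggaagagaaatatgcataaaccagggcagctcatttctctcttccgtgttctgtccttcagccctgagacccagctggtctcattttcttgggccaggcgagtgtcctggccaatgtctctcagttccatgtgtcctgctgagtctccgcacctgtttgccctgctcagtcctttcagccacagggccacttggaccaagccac

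P2RX4 (ENSG00000135124.16, chromosome 12, 121210065 to 121234106, plus strand), an ATP-gated channel of lysosomes and the plasma membrane, starts 77246 bp downstream of P2RX7. Its TSS carried H3K4me3 over 832 and 1090 bp with Corin against 847 and 1070 bp with DMSO, a difference of 2.5 bp with an SD of 241. The values followed the replicate number and not the treatment. H3K27ac in the window was 1303 and 1267 bp with Corin against 850 and 492 bp with DMSO, 1.92-fold. This call rested on different places in different libraries: over the TSS, from -131 to 495 bp, a peak was called in replicate 2 of both treatments, and an intronic region from 4099 to 5193 bp had a peak in every library but DMSO replicate 2. At a matched number of peaks the values were 1095 and 0 bp with Corin against 850 and 492 bp with DMSO, and the direction turned. H3K4me2 was 1764 and 2782 bp against 1485 and 1940 bp, and the groups overlapped. At the intronic region alone it was 892 and 865 bp with Corin against 720 and 625 bp with DMSO.

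**Figure D4:**
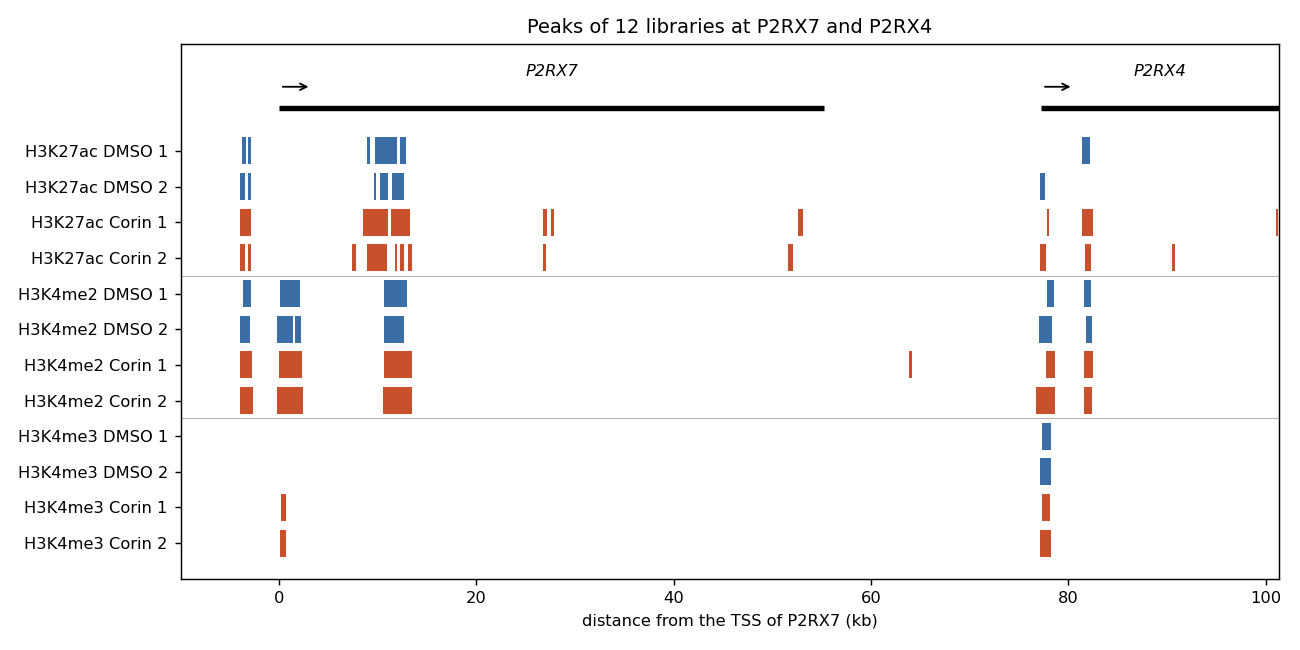
Boxes are peaks of the 12 libraries (DMSO blue, Corin orange) by distance in kb from the P2RX7 TSS, with genes as black bars and arrows in the direction of transcription. H3K4me3 appears just past the P2RX7 TSS in the Corin libraries only. H3K27ac lies further from that TSS, on both sides, and the H3K4me3 peak of P2RX4 is present in all 4 libraries.

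P2RX1 (ENSG00000108405.4, chromosome 17, 3896592 to 3916476, minus strand), a fast-desensitising ATP-gated channel of platelets and leukocytes, had the H3K27ac difference with the smallest SD among the 4 higher members. Coverage was 3868 and 3634 bp with Corin against 1757 and 1804 bp with DMSO. Means were 3751 ± 165 bp (SD, n = 2) and 1780.5 ± 33.2 bp (SD, n = 2), 2.11-fold, a difference of 1970.5 bp with an SD of 169. That small SD depended on weak peaks: with a score of at least 100 the values were 3868 and 3391 bp with Corin and 0 and 1574 bp with DMSO, a difference of 2842.5 bp with an SD of 1163. In the DMSO libraries H3K27ac was broken into 4 peaks each, the widest of 555 and 710 bp. After Corin the widest peak spanned -1417 to 2450 bp in replicate 1 and -1490 to 1900 bp in replicate 2, over 3868 and 3391 bp. Only 497 bp were under H3K27ac in both DMSO libraries, and 3318 bp in both Corin libraries.

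Both methylation marks lay over the P2RX1 TSS in every library. H3K4me3 was 2539 and 2459 bp with Corin against 2597 and 2496 bp with DMSO, a difference of -47.5 bp with an SD of 91.1. H3K4me2 was 4996 and 4885 bp with Corin against 3926 and 4666 bp with DMSO, 1.15-fold, higher in both Corin libraries. Scaled to total length it turned to 0.903-fold. Of 720 bp of H3K27ac present in both Corin and neither DMSO library, 91.8% lay under H3K4me2 and 80% under H3K4me3 of both DMSO libraries, against 36.6% and 22.3% over all chromosomes. The upstream part of the window overlaps the 3′ end of ATP2A3.

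**Figure D5:**
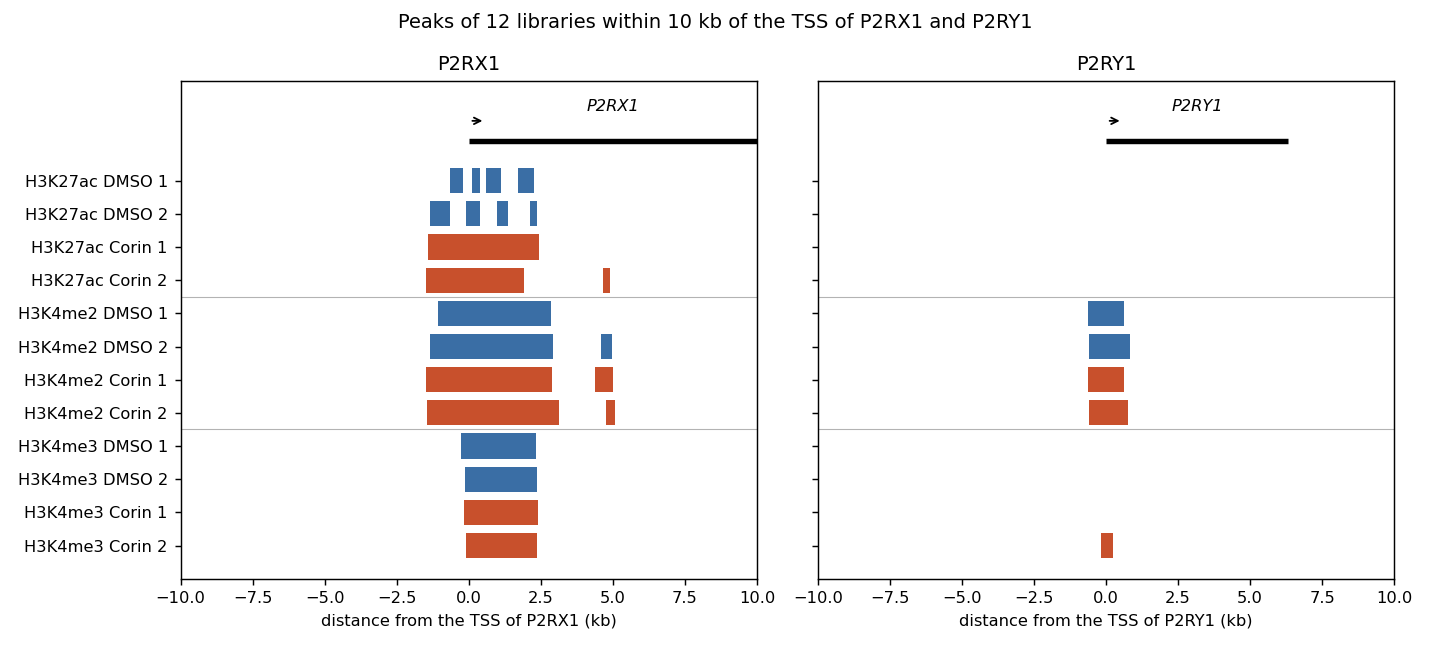
Boxes are peaks of the 12 libraries (DMSO blue, Corin orange) by distance in kb from the TSS of P2RX1 (left) and P2RY1 (right), each drawn in its direction of transcription. At P2RX1 the 4 small H3K27ac peaks of each DMSO library stand against a wide peak after Corin, with H3K4me3 present in all 4 libraries, and P2RY1 has H3K4me2 in all 4 libraries without H3K27ac.

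The other genes of the pathway, 33 in all, were counted by the same rule. H3K27ac was higher at 14 of the 17 with a peak and lower at 0, H3K4me2 was higher at 11 of 25 and lower at 1, and H3K4me3 was higher at 4 of 15 and lower at 0. The shares higher among all covered genes were 54.6%, 39.5% and 25.7%, and those of the pathway for H3K4me2 and H3K4me3 lay near them. Among 9 other P2 receptors H3K27ac was higher at 3 of 3 with a peak, H3K4me2 at 0 of 5 and H3K4me3 at 2 of 4. P2RY11, a receptor for ATP, held 2013 and 3013 bp of H3K27ac with Corin against 649 and 1069 bp with DMSO. P2RX5, a further ATP-gated channel, held 1248 and 1225 bp of H3K4me3 with Corin against 921 and 1078 bp with DMSO.

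Of 4 adenosine receptors, H3K27ac was higher at 2 of 2 with a peak, H3K4me2 at 2 of 3 and H3K4me3 at 1 of 2. For this list and those that follow, the shares among all covered genes were again 54.6%, 39.5% and 25.7%. With so few genes, the counts do not set these lists apart. Of 10 enzymes that degrade extracellular nucleotides or adenosine, H3K27ac was higher at 1 of 3 with a peak, H3K4me2 at 2 of 7 and H3K4me3 at 1 of 2. ADA, which deaminates adenosine, held 1245 and 1397 bp of H3K4me3 with Corin against 972 and 1136 bp with DMSO. ALPL, an alkaline phosphatase, held 311 and 317 bp of H3K4me2 after DMSO and no peak of that mark after Corin, the 1 lower gene. Among all covered genes 3.83% were lower for H3K4me2. Of 4 genes for nucleotide release or nucleoside transport, H3K27ac was higher at 3 of 3 with a peak, H3K4me2 at 2 of 4 and H3K4me3 at 0 of 3.

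The 6 inflammasome genes downstream of P2RX7 all had H3K27ac and H3K4me2 peaks, and each mark was higher at 5 of 6, while H3K4me3 was higher at 0 of 4, against 54.6%, 39.5% and 25.7% of all covered genes for H3K27ac, H3K4me2 and H3K4me3. With 4 to 6 genes, these counts do not set the list apart. NLRP3, the sensor, held 6897 and 4677 bp of H3K27ac with Corin against 3608 and 2634 bp with DMSO. GSDMD, which forms the pores that release the cytokine, held 5506 and 4855 bp against 2586 and 3281 bp. For H3K4me2 the largest difference of the pathway was at IL1B, the cytokine itself, with 4297 and 3871 bp with Corin against 1260 and 1573 bp with DMSO. NLRP3 held 13192 and 12338 bp of H3K4me2 against 10584 and 10653 bp.

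Over the 12 libraries, the genes nearest to P2RY2 in bp covered were LST1 on chromosome 6, with a root mean square difference of 838 bp, CISH on chromosome 3 (1133 bp) and PIGX on chromosome 3 (1231 bp). LST1, a leukocyte transcript of the class III MHC region, had mean H3K27ac of 11761 bp after Corin and 5777.5 bp after DMSO. The nearest to P2RY6 was HECTD3 (173 bp), to P2RX1 GEMIN7 (292 bp), to P2RX4 TBX10 (283 bp) and to P2RX7 SIRPB2 (352 bp). SIRPB2 shared with P2RX7 an H3K4me3 mean of 0 bp after DMSO, with 283.5 bp after Corin. The measure compares amounts of peak cover and not their positions.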

How the data were processed

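CUT&RUN peak lists of 12 MOLM-13 libraries were used. Per the submitters' processing notes, Trim Galore, Bowtie2, Picard and MACS2 were used on GRCh38 (hg38). Their versions, the calling threshold and any control are not given in the sources used here. The authors deposited 1 list per library, giving each peak a whole-number score of 50 or more. What the score measures is not given in the sources used here, and it served to filter or rank peaks within a list. All 292523 peaks lay within the chromosome lengths of hg38.

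The bp under peaks was summed per library in windows of 10 kb either side of the 5′ end of the GENCODE release 44 gene record and over gene bodies, for 20007 protein-coding genes with 1 record kept per symbol (Python 3.11.15, pandas 2.3.3, numpy 2.4.6). The code was tested on simulated peaks of known length. Peaks of the 4 lists of a mark that shared at least 1 bp were merged into union regions. Groups followed the sample titles. No test was made, because the members were chosen with this contrast in view, and the members and lists were chosen with earlier results of these data known. All 8 members are named. Other pathway genes are named if among the 3 largest differences per mark and direction whose groups did not overlap. Likeness is the root mean square difference over the 12 libraries, for genes whose window overlaps none of the members' windows, given for the 3 nearest genes of P2RY2 and the nearest of each other member with a peak in at least 6 libraries. Regions named are the widest per gene and, chosen after their values were seen, some that were gained or had separated groups, and those at or near the TSS or shared by marks. Not every region with separated groups is named. Alternatives were a matched number of peaks per mark, a score of at least 100, windows of 5 and 25 kb, gene bodies, canonical transcripts, scaling to total covered length, the replicate block, presence at 50% of a region, and leaving out each library. For 1 gained region the sequence and its motifs are not reported here, and not every other sequence searched is printed.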

Additional observations from a re-analysis of the deposited data

How the results depend on the processing

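Scaled to total covered length, the count of members higher moved from 4 to 0 for H3K27ac (all covered genes 16.5%) and from 3 to 0 for H3K4me2 (9.86%), and stayed at 2 for H3K4me3 (14%). Lower were then 4 members for H3K4me2 (P2RY1, P2RY2, P2RY6 and P2RX1; all genes 45.9%) and 2 for H3K4me3 (P2RY6 and P2RX1; 19.8%). Differences changed sign at P2RY2 (-1199 bp), P2RY6 (-670.7 bp), P2RX1 (-473.4 bp) and P2RX7 (-27.8 bp) for H3K4me2, at P2RX4 (-26.7 bp) for H3K27ac, and at P2RY6 (-79.0 bp) and P2RX4 (-46.1 bp) for H3K4me3. P2RX4 also stood at -123.5 bp for H3K27ac at a matched number of peaks and, again at -123.5 bp, with a score of at least 100. H3K4me3 was higher at 1 member, P2RY2, in those same settings (all genes 24.4% and 25%). In windows of 25 kb H3K4me2 was higher at 6 members (all genes 46.3%) and H3K27ac at 6 (61.6%), P2RY13 among them for both, and over gene bodies H3K4me2 was higher at 5 (39.7%). The labels do not say what a replicate number shares, and with 2 pairs per mark the libraries are treated as sharing only a number. Over 20007 genes, the deviations of same-numbered libraries correlated at 0.213 (H3K27ac), 0.230 (H3K4me2) and 0.203 (H3K4me3). Under a replicate block 5, 4 and 3 members were higher (all genes 65.9%, 49.9% and 37.3%), and 1 was lower for H3K4me2 (P2RY1; 7.33%) and 1 for H3K4me3 (P2RX1; 15.5%). The differences that separated only under this block were H3K27ac at P2RY6 (607 bp), H3K4me2 at P2RX4 (560.5 bp) and H3K4me3 at P2RY6 (9.5 bp) among those higher. Gained regions fell to 0 for each mark at a matched number of peaks, of 15, 12 and 5 regions (all regions 4.49%, 3.91% and 0.804%), and numbered 10 for H3K27ac (15.1%) and 2 for H3K4me2 (13.7%) when 50% of a region had to be covered. Leaving out 1 library at a time loosens the definitions: members higher ranged from 4 to 5 for H3K27ac (all genes 63.4% to 81%), 3 to 5 for H3K4me2 (47.1% to 66.6%) and 2 to 4 for H3K4me3 (36.9% to 49.8%), and members lower from 0 to 1 for H3K4me2 (7.16% to 21.3%) and H3K4me3 (18.2% to 26.6%). Gained regions then ranged from 9 to 15 for H3K27ac (16% to 36.9% of all regions), 1 to 3 for H3K4me2 (12.6% to 21.3%) and 1 to 2 for H3K4me3 (2.22% to 5.35%), and lost H3K27ac regions from 0 to 1 (0.433% to 3.51%). With 2 libraries a group and no read counts, neither depth nor signal height could be set beside these lengths.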
